A study of Homo sapiens with 4 samples.

Results

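Keratins are the intermediate filament proteins of epithelial cells, and 10 keratin genes were followed here in PC9 cells and in osimertinib-resistant PC9OR cells. The members were taken by symbol from a fixed list: the simple keratins KRT7, KRT8, KRT18 and KRT19, the basal keratins KRT5, KRT15 and KRT17, and 3 further type II keratins, KRT80 and the hair-type KRT81 and KRT86. All 10 were among the 16813 genes listed in at least 1 library, beside 24 other keratin genes. PC9 is a lung adenocarcinoma cell line with a mutant *EGFR*, labelled as wild-type genotype and control phenotype, and PC9OR is the line derived from it that resists osimertinib, an inhibitor of the EGFR kinase. Both were grown in the same serum-containing medium with no drug named in the labels, and 2 libraries labelled as biological replicates were sequenced per line. As PC9OR is 1 resistant line, resistance and any other change the line has undergone cannot be told apart. The sources do not say whether replicates were separate cultures, so the p-values cover the spread between these libraries, which may be technical.

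A keratin filament is built from pairs of 1 type I (acidic) and 1 type II (basic) chain, and an unpaired chain is usually degraded. Simple epithelia and most adenocarcinomas carry KRT8 with KRT18, often with KRT7 and KRT19, whereas KRT5 and KRT15 belong to the basal layer of stratified and airway epithelia and KRT17 is induced by injury and growth signals. KRT81 and KRT86 are known from the hair shaft, and KRT80 from a range of differentiating epithelia. The type II genes and KRT18 lie in a cluster on chromosome 12, and the other type I genes lie on chromosome 17.

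The summed expected counts were between 23201307 and 32203998 per library, and the symbols of 99.7% of the Entrez identifiers were found. The filter on low counts left 13148 genes to test, and all 10 members were among them, with at least 1.32 counts per 1000000 reads in every library. The libraries had the markers of an epithelial line: *EPCAM* was listed at 139 to 148 FPKM (fragments per kilobase of transcript and per 1000000 fragments), and the 5 epithelial markers summed to between 498 and 583 FPKM. Defining lung markers were nearly absent. *SFTPB*, *SFTPC*, *SFTPA1* and *CLDN18* were listed in no library, *NKX2-1* and *NAPSA* were below 0.2 FPKM, and of that list *MUC1* alone passed the filter, at 3.24 and 2.01 FPKM in PC9 and 0.34 and 0.42 in PC9OR cells. The 5 neuroendocrine markers summed to at most 0.08 FPKM, and of the 6 blood and endothelial markers *CD68* alone reached 1 FPKM, at 6.36 and 5.12 in PC9 and 2.75 and 2.49 in PC9OR cells.

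In PC9OR cells the 4 abundant simple keratins were about 2-fold higher, and by less with the offset for transcript length described below. Among the basal keratins KRT5 was lower and KRT15 higher. Of the 10 members, 6 were higher and 3 were lower than in PC9 cells at an adjusted p under 0.05 (quasi-likelihood test of edgeR, adjusted after Benjamini and Hochberg over all genes tested). Over all 13148 genes, 15.6% were called higher and 20.8% lower. The members called higher were KRT7, KRT8, KRT15, KRT17, KRT18 and KRT19, and those called lower were KRT5, KRT80 and KRT81. KRT86 was not called. When a change of over 2-fold was also required, 4 members were higher and 2 were lower, against 6.13% and 11.6% of all genes. With an offset for transcript length, a smooth curve that takes the trend of counts with length out of each library, 2 members, KRT8 and KRT15, were higher by over 2-fold and 2 were lower, against 6.39% and 9.51% of all genes, since KRT18 had a log2 fold change of 0.92 (adjusted p = 0.00258 by edgeR) and KRT17 was no longer called. The median log2 fold change of the members was 0.95, against 0.01 for all genes tested. The groups did not overlap for any member: PC9OR was the higher in 7, KRT86 included, and the lower in 3, while 39.6% of all genes tested were higher and 38.2% lower in this way. With a threshold of 0.001 on the adjusted p and over 2-fold change, edgeR called 0 members and also 0% of all 13148 genes in either direction. At an unadjusted p under 0.05 and over 2-fold change, 4 members were higher and 2 lower by edgeR, against 7.35% and 13.1% of all genes. By the Wald test of DESeq2 at the threshold of 0.001, 3 were higher and 2 lower, against 3.74% and 9.09% of the 13526 genes with an adjusted p.

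**Figure D1:**
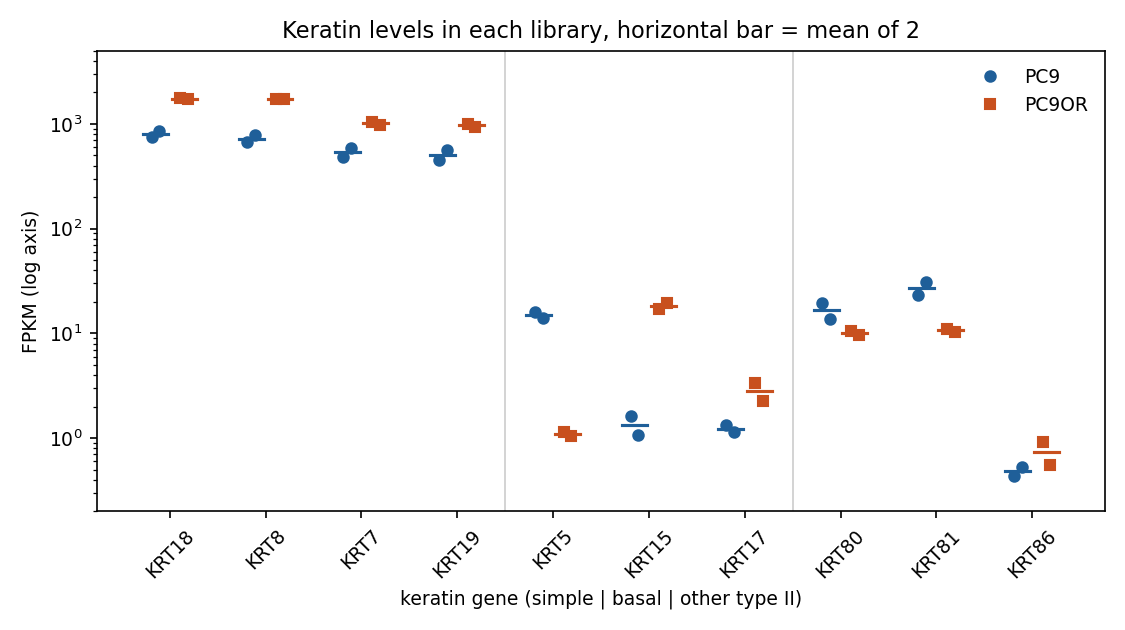
Level of each of the 10 keratin genes in FPKM on a log axis, with PC9 libraries as blue circles, PC9OR libraries as orange squares and a horizontal bar for the mean of the 2 libraries of a line. The 4 simple keratins sit between 452 and 1762 FPKM in every library, and KRT5 and KRT15 exchange places between the lines.

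The simple keratins made up nearly all of the keratin message. KRT18 (type I) was listed at 752 and 859 FPKM in the PC9 libraries and at 1762 and 1716 in the PC9OR libraries. Its partner KRT8 (type II) was at 669 and 778 FPKM in PC9 and at 1737 and 1717 in PC9OR cells. KRT7, a type II keratin of glandular and ductal epithelia, was at 485 and 596 FPKM in PC9 and at 1051 and 983 in PC9OR cells. For each of these genes the PC9OR libraries lay above the PC9 libraries with no overlap. KRT19, the smallest type I keratin and one without most of the usual tail domain, was at 452 and 559 FPKM in PC9 and at 1009 and 930 in PC9OR cells. The 4 genes were among the 111 most abundant of each library by FPKM. Together they held 97.4% and 97.8% of the summed member FPKM in PC9 libraries and 99.2% and 99.2% in PC9OR libraries.

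In counts normalized to library size by edgeR's TMM method (counts per 1000000 reads, CPM), KRT8 rose from 1732 ± 208 (SD, n = 2) to 4207 ± 26.3 (SD, n = 2), a log2 fold change of 1.28 (standard error 0.126, adjusted p = 0.00568 by edgeR). KRT18 had a log2 fold change of 1.13 with a standard error of 0.121 (adjusted p = 0.00646 by edgeR). KRT19 and KRT7 rose by slightly less than 2-fold: the log2 fold changes were 0.96 (standard error 0.148, adjusted p = 0.0116) and 0.94 (standard error 0.145, adjusted p = 0.0117), both by edgeR. The 95% confidence intervals of the 4 log2 fold changes overlapped, running from 0.57 to 1.31 for KRT7 at the low end and from 0.96 to 1.60 for KRT8 at the high end. With the offset for transcript length all 4 log2 fold changes were smaller. They were 1.14 for KRT8, 0.92 for KRT18, 0.78 for KRT7 and 0.75 for KRT19, each with an adjusted p under 0.05 by edgeR.

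By the mean FPKM of each line, the simple keratins had the same order in both. Within libraries, KRT8 was the higher in PC9OR replicate 2 (1716.52 against 1715.5) and KRT18 in the other 3 libraries. KRT7 was above KRT19 in every library, and every library had both KRT18 and KRT8 above both of them. Between libraries of the same line, the FPKM ranges of KRT18 and KRT8 overlapped, as did those of KRT7 and KRT19. The FPKM of KRT8 relative to KRT18 was 0.890 and 0.906 in the PC9 libraries and 0.986 and 1.00 in the PC9OR libraries. KRT7 relative to KRT19 was 1.07 and 1.07 in PC9 and 1.04 and 1.06 in PC9OR cells. KRT8 relative to KRT7 was 1.38 and 1.31 in PC9 and 1.65 and 1.75 in PC9OR cells. With 2 libraries against 2, the smallest p of the exact permutation test (two-sided) was 0.333, which each of these 3 ratios had, so they are given as values.

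In FPKM, which divides by transcript length, type I and type II message were nearly equal in every library. Both sums were about as much higher in PC9OR cells (2.08-fold and 2.10-fold). As the simple keratins made up most of both sums, the balance says little of the other members. The 4 type I members summed to 1207 and 1420 FPKM in the PC9 libraries and to 2791 and 2667 in the PC9OR libraries. The 6 type II members summed to 1214 and 1433 FPKM in PC9 and to 2812 and 2721 in PC9OR cells. The ratio of type I to type II was thus 0.995 and 0.991 in PC9 and 0.993 and 0.980 in PC9OR cells. The mean log2 ratio differed by -0.01 between the lines (exact permutation test, two-sided, p = 0.667). With all listed keratin genes in place of the members, the ratio stayed between 0.984 and 0.997 over the 4 libraries. The summed FPKM of the 10 members was 2.09-fold higher in PC9OR cells (exact permutation p = 0.333, two-sided, the smallest that this design allows). The FPKM of all genes summed to 307648 and 357089 in PC9 and to 413521 and 410202 in PC9OR libraries, so the scale differed. The members took 0.787% and 0.799% of all FPKM in PC9 against 1.35% and 1.31% in PC9OR libraries, a 1.68-fold rise. In CPM their summed level had a mean log2 difference of 1.08. FPKM counts message and not protein, and more cells with a keratin and more keratin message per cell cannot be told apart in bulk RNA.

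**Figure D2:**
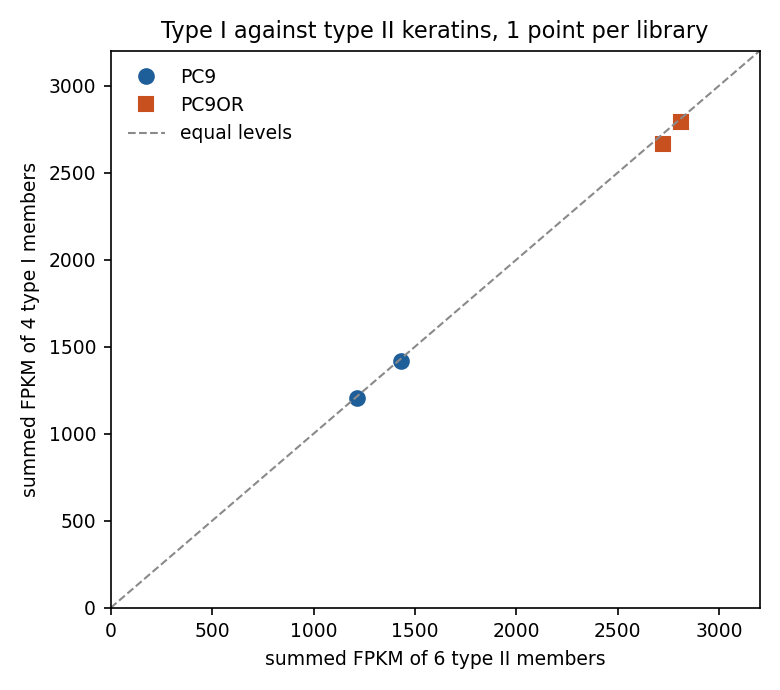
Summed FPKM of the 4 type I members (vertical axis) against that of the 6 type II members (horizontal axis), 1 point per library, blue circles for PC9 and orange squares for PC9OR, with a dashed line where both are equal. All 4 libraries lie close to the line, with ratios between 0.980 and 0.995, while the PC9OR libraries lie about 2.09-fold further out.

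Outside the 4 simple keratins, the other 6 members summed to 62.5 and 61.4 FPKM in PC9 libraries and to 43.96 and 43.58 in PC9OR libraries, for which the same exact test gave its smallest p of 0.333. The basal keratins KRT5 and KRT15 moved in opposite directions and by a similar factor. KRT5 (type II), which lies on the minus strand of chromosome 12 of GRCh37 from 52908359 to 52914314, was at 16.2 and 14.1 FPKM in PC9 and at 1.14 and 1.06 in PC9OR cells. KRT15 (type I), on the minus strand of chromosome 17 from 39669997 to 39678781, was at 1.63 and 1.07 FPKM in PC9 and at 17.1 and 19.6 in PC9OR cells. The groups of both genes were far apart, and KRT5 fell to about the level that KRT15 had held in PC9 cells.

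In CPM, KRT5 was at 47.2 ± 4.0 (SD, n = 2) in PC9 and at 3.5 ± 0.13 (SD, n = 2) in PC9OR cells, a 13.5-fold decrease (log2 fold change -3.75, standard error 0.151, adjusted p = 0.0019 by edgeR). KRT15 was at 3.32 ± 0.917 (SD, n = 2) in PC9 and at 46.0 ± 5.0 (SD, n = 2) in PC9OR cells, a 13.9-fold increase (log2 fold change 3.80, standard error 0.238, adjusted p = 0.00351 by edgeR). The FPKM of KRT5 was 9.93 and 13.1 times that of KRT15 in the PC9 libraries, whereas KRT15 was 15.04 and 18.48 times KRT5 in the PC9OR libraries. These were the largest changes in size among the members, and under each of the 14 alternative settings both kept their direction and an adjusted p under 0.05. KRT19, whose gene lies 1087 bases from that of KRT15, changed 1.95-fold.

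KRT17, a type I keratin of basal and wounded epithelium, was low in both lines. It was listed at 1.33 and 1.14 FPKM in PC9 and at 3.40 and 2.24 in PC9OR cells, from 63.9, 68.9, 227 and 152 expected counts. The groups did not overlap, but the PC9OR libraries differed from each other by more than the PC9 libraries did. Its log2 fold change of 1.21 had a standard error of 0.312 (adjusted p = 0.0375 by edgeR), and this call depended on the setting. The adjusted p was 0.0582 without PC9 replicate 2, 0.277 without PC9OR replicate 1, 0.0769 without PC9OR replicate 2 and 0.0515 with an offset for transcript length, within a range from 0.0195 to 0.277 over its alternatives by edgeR, DESeq2 and limma. The log2 fold change without PC9OR replicate 1 was 0.90.

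**Figure D3:**
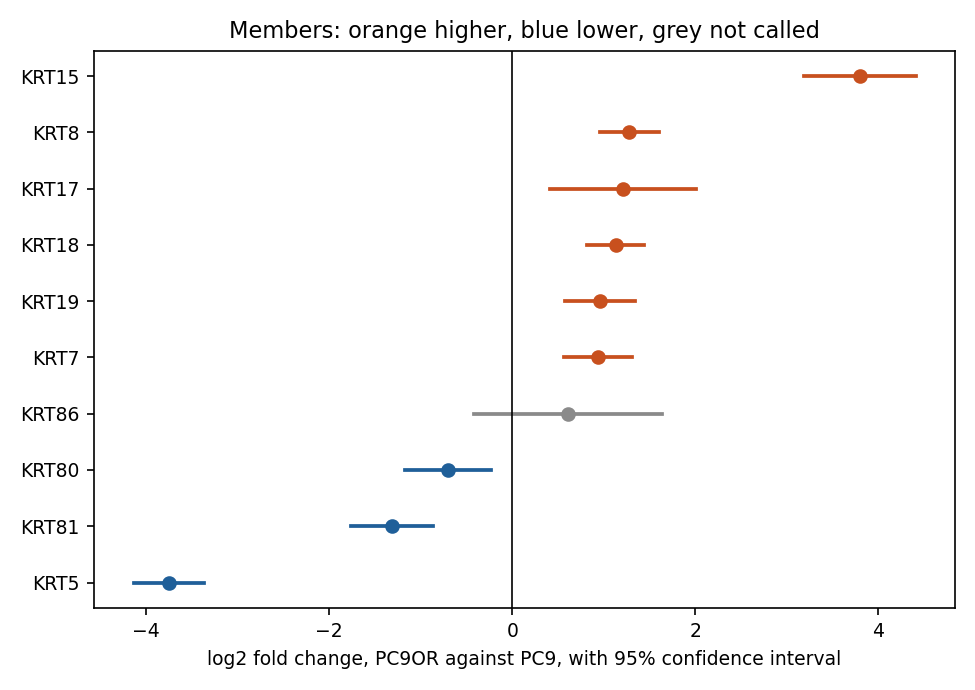
Log2 fold change of PC9OR against PC9 for each member (points) with its 95% confidence interval (lines), in orange where called higher, in blue where called lower and in grey where not called at an adjusted p under 0.05. KRT15 (3.80) and KRT5 (-3.75) lie far from the other 8, and the interval of KRT86 spans 0.

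The remaining type II members were lower or did not pass the test. KRT80, on the minus strand of chromosome 12 from 52562780 to 52585798, was listed at 19.7 and 13.9 FPKM in PC9 and at 10.5 and 9.71 in PC9OR cells. Its groups did not overlap, although PC9 replicate 1 was well above PC9 replicate 2. It was 1.62-fold lower, with a log2 fold change of -0.70 and a standard error of 0.184 (adjusted p = 0.0394 by edgeR). The adjusted p was 0.151 without PC9OR replicate 1 and 0.201 without PC9OR replicate 2, and it ran from 0.00172 to 0.201 over its alternatives. KRT80 has the longest message of the members, at 3871 bases against 1467 to 2303 for the other 9. The log2 fold change had a rank correlation of -0.38 with transcript length over the tested genes with a mean of at least 1 CPM. Over the same genes, the log2 difference between the PC9 replicates (2 against 1) had one of -0.44. Both are descriptions in which genes share the same 4 libraries. With an offset for length KRT80 fell by 0.52, with an adjusted p of 0.0398 by edgeR. Of the members called, KRT17 alone lost its call under that offset.

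KRT81 was at 23.2 and 30.7 FPKM in PC9 and at 10.9 and 10.4 in PC9OR cells, and its groups did not overlap. It was 2.48-fold lower, with a log2 fold change of -1.31 and a standard error of 0.175 (adjusted p = 0.00929 by edgeR). KRT86 was at 0.44 and 0.53 FPKM in PC9 and at 0.91 and 0.55 in PC9OR cells, which were above the PC9 libraries by a margin smaller than the difference between the PC9OR libraries. Its log2 fold change was 0.61, with a 95% confidence interval from -0.41 to 1.64 and an adjusted p of 0.268 by edgeR, so the data do not fix its direction. Both genes had few counts relative to the simple keratins, with 30.8 to 89.8 expected counts per library for KRT86.

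KRT81 and KRT86 are paralogs that share sequence, so how reads were divided between them is uncertain. On chromosome 12 of GRCh37, KRT81 (minus strand, 52679697 to 52685318) lies inside the span of KRT86 (plus strand, 52643084 to 52702947), and the sources used here do not give the strand setting of the counting. Their coding sequences were identical at 90.1% of aligned positions with 1 identical run of 605 bases, and 29.4% of the 100-base words of the KRT81 transcript were also in KRT86. The stretch of 60 coding bases in which they differ most, with 14 differences, is shown because reads over it can be told apart, with the differing bases in capitals (coding positions 1249 to 1308 of both canonical GENCODE transcripts on GRCh37, counted from the start codon).
KRT81: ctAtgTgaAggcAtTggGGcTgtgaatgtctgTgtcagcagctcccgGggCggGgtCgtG
KRT86: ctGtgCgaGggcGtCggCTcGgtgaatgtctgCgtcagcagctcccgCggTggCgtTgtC
With both genes summed before the fit, the pair had a log2 fold change of -1.23 with a standard error of 0.176 (adjusted p = 0.0104 by edgeR). The FPKM of KRT81 was 52.8 and 57.9 times that of KRT86 in PC9 and 12 and 19.0 times in PC9OR libraries.

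The other members shared little sequence with other genes. KRT7, KRT15, KRT18, KRT19 and KRT80 had no 100-base word in common with the transcripts of another annotated gene. The shares were 0.353% for KRT17, 1.64% for KRT5 (with the KRT6 genes) and 7.12% for KRT8, most of it with the pseudogene KRT8P3. No keratin pseudogene was among the genes listed in these files, so reads of such copies had no entry of their own here. The annotated bounds of KRT8 (53290971 to 53343738, minus strand) overlap those of KRT18 (53342655 to 53346690, plus strand), but the starts of the canonical transcripts are 44042 bases apart. On chromosome 12 KRT7 spans 52626304 to 52645970 on the plus strand, and on chromosome 17 KRT19 and KRT17 span 39679869 to 39684560 and 39775694 to 39781094 on the minus strand.

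The 24 other keratin genes summed to between 27.0 and 43.7 FPKM per library, and 12 of them passed the filter on low counts. Of these, 3 were higher and 5 were lower in PC9OR cells at an adjusted p under 0.05 by edgeR, against 15.6% and 20.8% of all genes. The median log2 fold change over the 12 was -0.72. KRT16, the type I partner of KRT6 in activated epidermis, was at 3.18 and 3.59 FPKM in PC9 and at 16.65 and 14.04 in PC9OR cells (4.61-fold higher, adjusted p = 0.0043 by edgeR). Its partners of the KRT6 family were lower. KRT6B was at 18.7 and 22.0 FPKM in PC9 and at 6.11 and 5.18 in PC9OR cells (log2 fold change -1.82, adjusted p = 0.00493 by edgeR), and KRT6A fell by 0.88 on the log2 scale (adjusted p = 0.0219 by edgeR). KRT6A and KRT6B were identical at 97.5% of aligned coding positions, so their division is uncertain too. KRT14, the usual type I partner of KRT5, was at 0.13 to 0.39 FPKM in all 4 libraries and was not called.

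KRT23, a type I keratin, was close to absent in PC9OR cells. It had 394 and 523 expected counts in the PC9 libraries and 6 and 0 in the PC9OR libraries, or 5.72 and 6.02 FPKM against 0.07 and a library that did not list it (adjusted p = 0.00579 by edgeR). KRT34, a hair-type gene, was at 2.96 and 2.86 FPKM in PC9 and at 0.90 and 0.62 in PC9OR cells (log2 fold change -1.91, adjusted p = 0.012 by edgeR). KRT13, a type I keratin of mucosal epithelia, was at 0.28 and 0.28 FPKM in PC9 and at 1.04 and 0.95 in PC9OR cells (log2 fold change 1.82, adjusted p = 0.0193 by edgeR). KRT9 and KRT75 were also called, the former higher with 2 and 2 counts in PC9 and 19 and 38 in PC9OR libraries, and the latter lower with 20 counts over both PC9 libraries and 1 over both PC9OR libraries, a ratio of 24.5 (95% interval 3.92 to 1015, counting error only). Of the 9 keratin-associated protein genes of hair that were listed, KRTAP2-3 alone was tested, at 1.83 and 1.10 FPKM in PC9 and 0.09 and 0.03 in PC9OR cells (log2 fold change -4.50, adjusted p = 0.0116 by edgeR).

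Along the chromosomes, there were runs of neighbouring keratin genes with the same direction. These were noticed, and their bounds chosen, after the values were seen, and they were not tested. On chromosome 17, all 7 tested keratin genes from KRT13 to KRT17 (39657233 to 39781094 of GRCh37), which include the members KRT15, KRT19 and KRT17, had a positive log2 fold change, and 6 of them were called higher, with KRT14 as the exception. The keratin genes before them in that cluster, KRT10, KRT23, KRT34 and KRT32, all had negative values, and KRT23 and KRT34 were called lower. On chromosome 12, the 4 neighbours KRT75, KRT6B, KRT6A and KRT5 (52817854 to 52914314) were all called lower, while KRT8 and KRT18, further along, were called higher. KRT78, between KRT5 and KRT8, had a log2 fold change of 0.99 and was not called (adjusted p = 0.0852 by edgeR). KRT7 was higher between KRT80 and KRT81, which were lower. The 15 tested genes before and after the chromosome 12 cluster had medians of -0.01 and -0.47, and those around the chromosome 17 cluster had medians of -0.58 and -0.24.

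**Figure D4:**
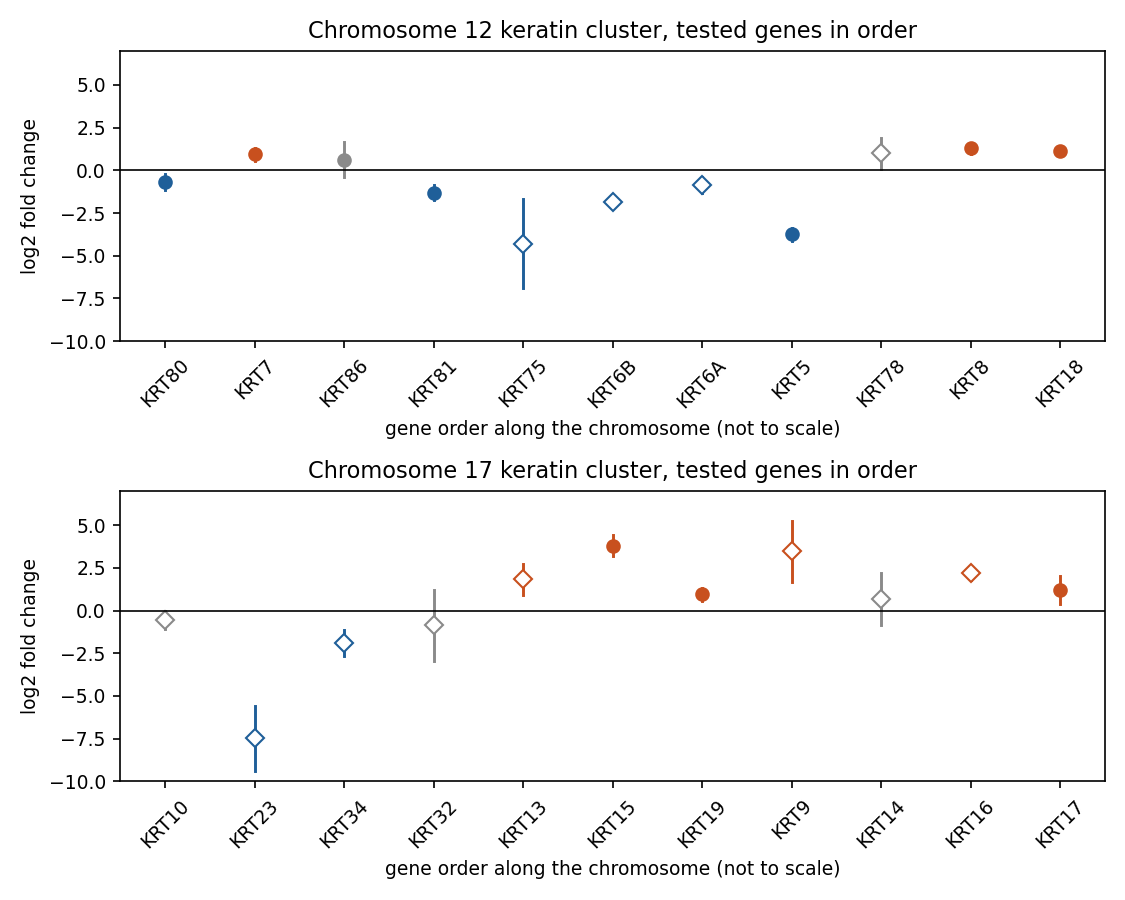
Log2 fold change of PC9OR against PC9 with 95% confidence intervals for the tested keratin genes in their order along chromosomes 12 (upper) and 17 (lower), filled circles for members and open diamonds for other keratins, orange for called higher, blue for called lower, grey for not called. From KRT13 to KRT17 all 7 values are above 0, and from KRT75 to KRT5 all 4 are below 0.

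Keratin filaments are anchored to desmosomes and to the cell base by plakins. Of 6 tested plakin genes, 0 were called higher and 3 lower by edgeR (0 higher and 3 lower also at more than 2-fold), with a median log2 fold change of -0.55. Of all genes 15.6% were called higher and 20.8% lower, or 6.13% and 11.6% at more than 2-fold. *DST*, which links filaments to hemidesmosomes, was at 54.7 and 44.9 FPKM in PC9 and at 12.5 and 12.9 in PC9OR cells. *PLEC*, a general cross-linker of filaments, was at 49.8 and 29.5 FPKM in PC9 and at 20.8 and 17.6 in PC9OR cells, and *DSP*, the desmosomal anchor, was at 25.4 and 18.7 in PC9 and 10.8 and 10.4 in PC9OR cells. These 3 messages are between 9449 and 15732 bases long, far above the members. With the offset for transcript length *DST* fell by 0.80 (adjusted p = 0.00627 by edgeR), *DSP* fell by 0.30 (adjusted p = 0.0656) and *PLEC* had a log2 fold change of 0.07 (adjusted p = 0.761), so the calls of the last 2 were lost.

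Among other intermediate filament genes, 10 were tested, 3 were higher and 1 was lower. The shares over all genes were 15.6% higher and 20.8% lower, for this list and the next. Vimentin, the mesenchymal filament, was at 4.30 and 5.13 FPKM in PC9 and at 4.71 and 4.0 in PC9OR cells and was not called (log2 fold change -0.09, 95% confidence interval -0.57 to 0.39, adjusted p = 0.73 by edgeR). *BFSP1*, a lens filament gene, was at 0.37 and 0.74 FPKM in PC9 and 1.78 and 1.68 in PC9OR cells, *NEFH*, a neurofilament gene, was at 2.26 and 0.99 in PC9 and 0.06 and 0.15 in PC9OR cells, and *SYNM* was listed in the PC9OR libraries only, at 0.14 and 0.19 FPKM. The third gene that was higher, *LMNB1* of the nuclear lamina, changed by less than 2-fold and is named after its value was seen, as are *PNN*, *KLF5*, *EHF*, *CLDN4*, *FN1* and *SNAI2* in what follows. Of 11 tested genes for keratin binding and turnover, 0 were higher and 1 was lower, *PNN*, the gene of a keratin-binding desmosomal and nuclear protein (log2 fold change -0.89, adjusted p = 0.0187 by edgeR).

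Of 16 tested epithelial transcription factor genes, 1 was higher and 6 were lower, with a median of -0.21. Here and for the lists that follow, the shares over all genes were 15.6% higher and 20.8% lower. *KLF4*, a factor of epithelial differentiation, was at 14.6 and 12.5 FPKM in PC9 and at 5.44 and 4.15 in PC9OR cells (log2 fold change -1.46, adjusted p = 0.00719 by edgeR). *TP63*, which encodes the basal cell factor p63, known to activate KRT5 and KRT14, was at 0.17 and 0.29 FPKM in PC9 and at 0.05 and 0.07 in PC9OR cells (log2 fold change -1.94, adjusted p = 0.0454 by edgeR, and 0.0648 with the length offset). *TFAP2A* and *FOXM1* were also more than 2-fold lower, at log2 fold changes of -1.94 and -1.89, *KLF5* and *EHF* were lower by less than 2-fold, and *SOX2* was higher but at no more than 0.27 FPKM. Of 8 tested genes of the cornified envelope, the protein shell of the outer epidermis, 0 were higher and 3 were lower: *CSTA*, *SPRR3* and *SPRR1A*, of which only *CSTA* exceeded 1 FPKM in any library. *KLK5*, by far the most abundant gene of that list, was not called, at 112 and 124 FPKM in PC9 and 127 and 118 in PC9OR cells. Of the 7 squamous and basal markers, which include KRT5 and KRT15, the summed level was 19.5 to 22.1 FPKM in PC9 and 20.8 to 23.5 in PC9OR cells, with KRT5 as the largest part in PC9 and KRT15 in PC9OR cells. Of the 5 epithelial markers 1 was higher, the tight junction gene *CLDN4* (log2 fold change 0.91, adjusted p = 0.0137 by edgeR), and 1 was lower. *CDH1*, the epithelial cadherin, fell from 69.5 and 49.5 to 22.0 and 20.1 FPKM (log2 fold change -1.46, adjusted p = 0.00814 by edgeR). Of the 7 mesenchymal markers, *TWIST1* was the 1 called higher, at 0.16 and 0.14 FPKM in PC9 and 0.51 and 0.68 in PC9OR cells, while *FN1* and *SNAI2* were called lower. What part these shifts have in the keratin changes was not tested.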

How the data were processed

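RNA from 2 PC9 and 2 PC9OR libraries (stranded TruSeq kit, Illumina HiSeq) was analysed. Reads were cleaned with SOAP per the methods of the paper, and the submitters' processing notes name Bowtie2 2.2.5, RSEM 1.2.12 and GRCh37 without their roles. For each library the authors deposited expected counts (estimated reads per gene, not normalized), FPKM values and a transcript length. The files hold genes by Entrez identifier and list a gene only where its FPKM rounds to 0.01 or more, so an absent gene was given 0.

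Expected counts were rounded and fitted in R 4.3.3 with edgeR 4.0.16 (TMM, filterByExpr, estimateDisp, glmQLFit, glmQLFTest), two-sided, over 13148 genes. A gene was called at an adjusted p under 0.05. The threshold of the paper (over 2-fold, 0.001) was an alternative. The paper set it on q values from DEGseq, a test that was not run here, so the counts under it are not those of the paper. The members, gene lists and tests were chosen with earlier results of these data known. Named were all members, other keratins with an adjusted p under 0.05, and listed genes that were also more than 2-fold changed. KRT10, KRT14, KRT32, KRT78, *VIM*, *KLK5* and the genes the text says so of were named outside this rule, after their values were seen. The markers *EPCAM*, *SFTPB*, *SFTPC*, *SFTPA1*, *CLDN18*, *NKX2-1* and *NAPSA* were also named outside it, to describe the cell type. Replicates differed by more than sampling noise, as the chi-square over genes of at least 20 counts, divided by its degrees of freedom, was 68.7 in PC9 and 10.3 in PC9OR. Alternatives used DESeq2 1.42.0, limma 3.58.1 on log2(FPKM + 1) or log2(FPKM + 0.1), mgcv 1.9.3 for length offsets, other filters and scalings, and each library left out. The fits were also run on simulated counts with the same dispersion for every gene and library and no trend with length. That run cannot show how they handle the length trend or the unequal replicate spread of these data. Positions and words of 100 bases came from GENCODE lifted to GRCh37. The promoter table, RefSeq on GRCh38.p14, held 2 members (KRT5 and KRT8). Of these windows of 300 bases, 0 had the AP-1 letters TGANTCA on either strand, which 7.76% of 27305 promoters had. At that share 2 windows would mostly lack the letters, so this count cannot tell keratin promoters from others.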

Additional observations from a re-analysis of the deposited data

How the results depend on the processing

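Of 202 alternative values, 191 were kept, 8 were weaker, 3 moved by more than the spread between replicates and 0 reversed. A gene was kept if it held its direction and its side of the threshold. A count of members was kept if it changed little, as from 6 to 5 or 4 and from 3 to 2. The 8 weaker values were lost calls and counts that went to 0. The type I to type II ratio and the summed level were judged by the spread alone, not by sign, and the difference in the ratio changed sign in 2 settings given below. With the threshold at 0.001 and over 2-fold change, the number of members called by edgeR went to 0 higher and 0 lower, as did the number over all 13148 genes. Leaving out a library in turn gave 5 to 6 members higher and 2 to 3 lower. It gave log2 fold changes from 0.90 to 1.47 for KRT17 and from -0.94 to -0.45 for KRT80. Over all genes, leaving out PC9OR replicate 1 or 2 lowered the calls from 2056 higher and 2734 lower to 525 and 1177 or 527 and 1191, while without PC9 replicate 2 they were 3932 and 3929. The lone library was assumed to vary like the other line. With the transcript length offset the log2 fold change of KRT17 was 1.01 and its call was lost, and the members over 2-fold higher went from 4 to 2. KRT7, KRT8, KRT15, KRT18, KRT19, KRT5 and KRT81 were called the same way under all 14 alternatives. The mean log2 difference in the type I to type II ratio was -0.01 as reported, 0.0104 in CPM, 0.00561 with all listed keratin genes and -0.0335 without KRT81 and KRT86. The cause of these changes was not tested.

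The replicate numbers were not taken to pair libraries, since no source says so. The deviations of same-numbered libraries had a correlation of 0.059 across the genes used for the correlations with transcript length. With the replicate block, 6 members were higher and 3 lower, and over all genes 2593 were higher and 2946 lower. KRT86 and KRT17 had low counts, at 30.8 to 89.8 and 63.9 to 227 expected counts per library. What part counting error has in their spread was not tested.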
